A study of Mus musculus with 6 samples.

Results

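Collagen and laminin transcripts were examined in livers of mice overdosed with acetaminophen (APAP) and in livers of mice given saline. The members were all genes of the deposited table whose symbol follows the pattern of a collagen alpha chain (Col, number, a, number) or of a laminin alpha, beta or gamma chain (Lam, letter, number). A total of 55 of 34745 genes had such a symbol, and 44 of them had at least 10 counts summed over the libraries and were compared, beside 16071 genes of the whole table that met the same minimum. They were sorted into 11 fibrillar collagens, 19 basement membrane genes and 25 collagens of other types. The liver samples came from WT mice, which the study's methods give as male C57BL/6J animals aged 8 to 10 weeks, and the mice of both groups had been fasted for 12 hours. The APAP group had received 300 mg/kg APAP by intraperitoneal injection 12 hours before, and the control group saline. Of 6 samples, 5 libraries were analysed, namely APAP replicates 1 and 3 and the columns WT1, WT2 and WT3. APAP replicate 2 was not analysed here. As the remaining columns carry APAP in their names, WT was taken to mean saline, and every difference rests on that reading. The RNA-Seq described which hepatic transcripts differ after an APAP overdose.

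Collagens are secreted trimers of alpha chains, and most types need a fixed set of chains to assemble. Fibrillar collagens (types I, III and V among them) form the tensile fibers of the portal tracts and of scars. Basement membranes are thin sheets built from a laminin network and a type IV collagen network, which nidogen and perlecan join. In the healthy liver the sinusoids have no continuous basement membrane, whereas bile ducts and larger vessels have one. Laminins consist of 1 alpha, 1 beta and 1 gamma chain. Stellate cells, portal fibroblasts, endothelial cells and bile duct cells are known sources of matrix in the liver, and Col18a1, whose C-terminal fragment is endostatin, is also made by hepatocytes. In whole tissue, fewer cells of a type and less RNA per cell cannot be told apart.

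Libraries held from 13378445 to 15976339 counts. The detection floor was set at 3 counts, which is 0.175 to 0.27 CPM (read counts scaled to library size and TMM factor). This floor and the intervals given below cover counting error only. The labelled tissue was borne out by its markers, since the summed level of 10 hepatocyte genes was between 87945 and 200134 CPM. Sex-linked genes separated the groups in all 5 libraries. Xist, which is transcribed from the inactive X chromosome, had 13 and 28 counts with APAP but 3231 to 13763 with saline. The Y-linked Ddx3y had 1344 and 998 counts with APAP but 0, 0 and 1 with saline. The saline libraries thus go against the male sex that the methods give, which leaves the identity of the WT columns in doubt. Sex-linked expression and treatment therefore cannot be told apart for any gene below.

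Of the 44 members tested, 4 had an adjusted p under 0.05 in edgeR's quasi-likelihood test, and all 4 were higher with APAP (9.09% of the members, beside 2.91% of all genes tested). These 4 were Col4a1, Col4a2, Lamb3 and Col16a1. No member was lower at that threshold (2.76% of all genes), while 2 were lower at an unadjusted P under 0.05, and DESeq2 called the same 2 genes, Col15a1 and Col18a1, at an adjusted p under 0.05. With the thresholds of the study (fold change of at least 1.5, unadjusted P under 0.05), 13 members passed, 11 of them higher (25.0%, beside 11.9% of all genes) and 2 lower (4.55%, beside 9.91%). APAP and saline values were fully apart in 11 members that were higher (25.0%, beside 23.1% of all genes) and in 7 that were lower (15.9%, beside 18.4%). Apart from the higher calls at both thresholds, these shares were therefore near or below those of all genes. The median log2 fold change of the members was 0.16, beside 0.05 over all genes tested. By type, 3 of 19 basement membrane genes, 0 of 9 fibrillar collagens and 1 of 16 collagens of other types were called at the adjusted p, and 8, 1 and 4 passed the study's thresholds. The plot of fitted differences shows them by type.

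**Figure D1:**
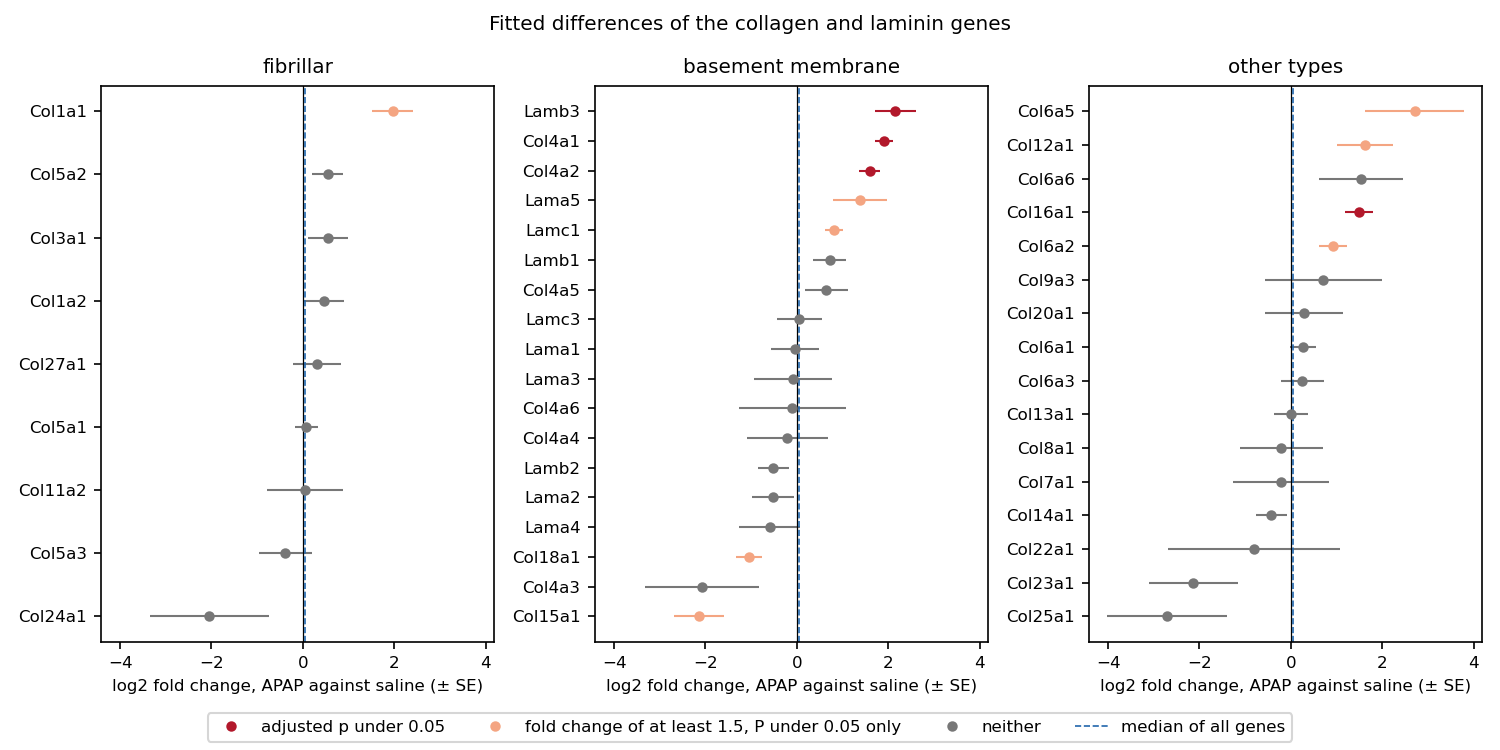
Fitted log2 fold change of APAP against saline (x axis, with its standard error) for the tested members reported here, in panels for fibrillar, basement membrane and other types. Dark points passed an adjusted p under 0.05, light points passed the study's thresholds only, grey points passed neither, and the dashed line is the median of all genes, 0.05.

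In the following, values are CPM, first of APAP replicates 1 and 3 and then of saline WT1, WT2 and WT3. Differences are fitted log2 fold changes of APAP against saline with their standard error, from edgeR (quasi-likelihood), and adjusted p values are by Benjamini-Hochberg over all 16071 genes.

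Col4a1 and Col4a2 encode the chains of the main type IV network, in which 2 alpha 1 chains join 1 alpha 2 chain. The genes lie head to head on chromosome 8 of GRCm38, Col4a1 on the minus strand (chr8:11198423-11312826) and Col4a2 on the plus strand (chr8:11312805-11449287), so that they overlap by 22 bases. Their promoter windows in RefSeq (GRCm38.p6), 250 bases before to 50 bases after each start, share 78 bases. The shared stretch holds a GGGCGG motif, and it is shown because it lies in the windows of both called genes. The capitals mark the motif on the plus strand, at chr8:11312800-11312829.
Col4a1 and Col4a2: tcggcagtgcgcGGGCGGcgtctccaaggg

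Both type IV genes were higher with APAP. Col4a1 measured 74.7 and 76.3 CPM in the APAP livers against 18.9, 22.7 and 19.0 CPM in the saline livers, a mean of 75.5 ± 1.12 (SD, n = 2) beside 20.2 ± 2.16 (SD, n = 3). The APAP libraries lay close together, far above every saline library. The difference was 1.90 ± 0.20 on the log2 scale (3.74-fold, adjusted p = 0.00426). Col4a2 measured 37.6 and 48.0 CPM in the APAP livers against 15.8, 12.0 and 14.7 CPM in the saline livers, again without overlap. The difference was 1.59 ± 0.23 (3.02-fold, adjusted p = 0.0112). Col4a1 kept an adjusted p under 0.05 in each of 13 alternatives, between 1.42e-14 and 0.0363. The call of Col4a2 was lost without APAP replicate 3 (adjusted p = 0.0631) and without saline WT2 (adjusted p = 0.0732).

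The share of Col4a1 in the reads of both chains was 66.5% (95% Clopper-Pearson interval 64.3 to 68.6) and 61.4% (59.2 to 63.5) in the APAP libraries. It was 54.4% (49.3 to 59.5), 65.4% (61.1 to 69.5) and 56.3% (51.9 to 60.7) in the saline libraries. The groups overlapped in this share, so that the chains were not separated by treatment in their proportion to each other. Per kilobase of transcript, Col4a1 was at 11.4 CPM per kb with APAP and 3.05 with saline, and Col4a2 at 6.64 and 2.20.

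The other type IV chains, alpha 3 to alpha 6, form networks of the kidney, lung and other specialized membranes, and were low in the liver. Col4a5, on the X chromosome, measured 4.32 and 1.93 CPM in the APAP livers against 1.71, 2.25 and 1.998 CPM in the saline livers (log2 fold change 0.65 ± 0.48, adjusted p = 0.476). Its X-linked neighbor Col4a6 measured 0.583 and 0.0621 CPM in the APAP livers against 0.0899, 0.663 and 0.266 CPM in the saline livers, and Col4a4 at 0.525 and 0.248 beside 0.270, 0.729 and 0.333 CPM. Col4a3 measured 0.175 and 0 CPM in the APAP livers against 0.270, 0.398 and 0.533 CPM in the saline livers, from 20 counts in all (adjusted p = 0.376). The groups overlapped in each of these genes but Col4a3, which was lower in both APAP libraries, and none passed a threshold. APAP replicate 1 and saline WT1 had 3 counts of Col4a3 each, so that their order depends on the TMM factors.

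Laminin transcripts differed chain by chain. Of the laminin genes, Lamb3 was called at the adjusted p, and Lamc1 and Lama5 were among those that passed the study's thresholds only, all of them higher. The median log2 fold change of the laminins was 0.05, the same as over all genes. Lamb3, the beta 3 chain of laminin-332, which anchors epithelia, was higher with APAP. It measured 11.0 and 5.40 CPM in the APAP livers against 2.61, 1.59 and 1.33 CPM in the saline livers. Every APAP value exceeded every saline value, and APAP replicate 1 was 2.03 times APAP replicate 3. The difference was 2.16 ± 0.45 (4.47-fold, adjusted p = 0.04). This call was lost whenever 1 library was left out, with adjusted p between 0.0524 (without APAP replicate 3) and 0.257 (without APAP replicate 1), and without saline WT1, WT2 and WT3 it was 0.0623, 0.163 and 0.0807.

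Lama3, the alpha 3 chain, which pairs with Lamb3 in laminin-332, measured 0.467 and 0.621 CPM in the APAP livers against 0.180, 0.995 and 0.533 CPM in the saline livers, from 43 counts in all. The APAP values of Lama3 lay inside the saline range (log2 fold change -0.09 ± 0.86, adjusted p = 0.965). Of the reads of the beta 3 and beta 1 chains together, Lamb3 took 34.6% and 37.5% after APAP against 23.2%, 15% and 12.4% after saline, without overlap between the groups.

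Lamc1, the gamma 1 chain of most laminins, was the most abundant laminin transcript per length, at 4.57 CPM per kb with APAP and 2.58 with saline. It measured 35.9 and 33.7 CPM in the APAP livers against 21.2, 18.5 and 19.4 CPM in the saline livers, a mean of 34.8 ± 1.53 (SD, n = 2) beside 19.7 ± 1.38 (SD, n = 3). Both groups were tight and apart from each other, with a log2 fold change of 0.82 ± 0.19 and an adjusted p of 0.054. For Lamc1 the adjusted p fell under 0.05 in 5 of 13 alternatives. In edgeR it was 0.0773, 0.208 and 0.0918 without saline WT1, WT2 and WT3. Without APAP replicates 1 and 3 the log2 fold change of Lamc1 was 0.776 and 0.867. Lamb1, the beta 1 chain, measured 20.7 and 9.004 CPM in the APAP livers against 8.63, 9.02 and 9.46 CPM in the saline livers. Only APAP replicate 1 stood above the saline libraries, and APAP replicate 3 lay among them (log2 fold change 0.72 ± 0.36, adjusted p = 0.287, and -0.01 without APAP replicate 1). Lamb2, the beta 2 chain of vascular and synaptic membranes, measured 5.13 and 4.35 CPM in the APAP livers against 5.21, 8.82 and 6.26 CPM in the saline livers, with both APAP values just below the lowest saline value (log2 fold change -0.52 ± 0.34, adjusted p = 0.423). That order depends on the TMM factors, since the APAP libraries had 88 and 70 counts and saline WT1 58. Lamc3 was at 3.67 and 3.04 CPM beside 1.89, 2.65 and 5.13 CPM, and the groups overlapped.

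Among the alpha chains, Lama5, the alpha 5 chain of mature epithelial and vascular membranes, measured 19.5 and 5.53 CPM in the APAP livers against 2.34, 6.70 and 5.20 CPM in the saline livers. APAP replicate 3 lay inside the saline range, so that the log2 fold change of 1.39 ± 0.59 (adjusted p = 0.217) fell to 0.21 without APAP replicate 1. Lama4, an endothelial chain, measured 2.16 and 2.30 CPM in the APAP livers against 3.595, 5.50 and 0.999 CPM in the saline livers, with overlap (adjusted p = 0.655). Lama2, the chain of muscle and mesenchymal membranes, measured 1.34 and 1.55 CPM in the APAP livers against 1.80, 2.45 and 1.998 CPM in the saline livers, slightly below them in both libraries (log2 fold change -0.53 ± 0.46, adjusted p = 0.549). That order too depends on the TMM factors, since the APAP libraries had 23 and 25 counts and saline WT1 20. Lama1, the chain of early embryonic membranes, was at 1.93 and 5.65 CPM beside 4.67, 4.44 and 2.60 CPM, and here the APAP libraries enclosed the saline ones.

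The multiplexins Col15a1 and Col18a1 are proteoglycan collagens of basement membranes that release anti-angiogenic fragments. Both were lower with APAP at the study's thresholds but not at the adjusted p. Col18a1 was the most abundant member per length, at 77.2 CPM per kb with APAP and 160 with saline. It measured 393.4 and 470.8 CPM in the APAP livers against 1006, 882.2 and 795.2 CPM in the saline livers, a mean of 432.1 ± 54.7 (SD, n = 2) beside 894.5 ± 106 (SD, n = 3). No APAP library reached any saline library (log2 fold change -1.05 ± 0.28, saline 2.07 times APAP, adjusted p = 0.0758). Col15a1 measured 2.51 and 0.683 CPM in the APAP livers against 6.47, 7.29 and 7.59 CPM in the saline livers. Here too the groups were apart, with the APAP libraries differing from each other more than the saline libraries did (log2 fold change -2.15 ± 0.54, adjusted p = 0.0665). DESeq2 gave adjusted p of 0.000128 for Col18a1 and 0.00228 for Col15a1. For Col18a1, edgeR's adjusted p was 0.123, 0.223 and 0.0965 without saline WT1, WT2 and WT3. The log2 fold change of Col18a1 was -0.925 and -1.183 without APAP replicates 1 and 3, and -0.656 with library size only. When APAP replicate 1 was left out, Col15a1 differed by -3.37 (log2) with an adjusted p of 0.0407. When replicate 3 was left out instead, it differed by -1.50 (adjusted p = 0.139), and without saline WT1, WT2 and WT3 its adjusted p was 0.129, 0.196 and 0.115. In all 13 alternatives both genes stayed lower with APAP.

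Because Col18a1 outweighed all other members, summed levels depended on it. It held 50.2% and 56.8% of the summed CPM of all 55 members after APAP against 82.7%, 75.5% and 78.6% after saline. The summed basement membrane level was 619 and 671.5 CPM with APAP and 1103, 989.6 and 894 CPM with saline, and without Col18a1 it was 225.6 and 200.7 CPM beside 96.9, 107.4 and 98.8 CPM. The sum of this class was thus lower in both APAP libraries with Col18a1 and higher in both without it. The summed type IV collagens were at 117.9 and 126.5 CPM in the APAP livers against 37.0, 38.7 and 36.8 CPM in the saline livers, and the summed laminins at 105.2 and 73.5 CPM beside 53.4, 61.4 and 54.4 CPM. The plot of summed levels shows these classes side by side with the fibrillar and other collagens, which did not separate the groups.

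**Figure D2:**
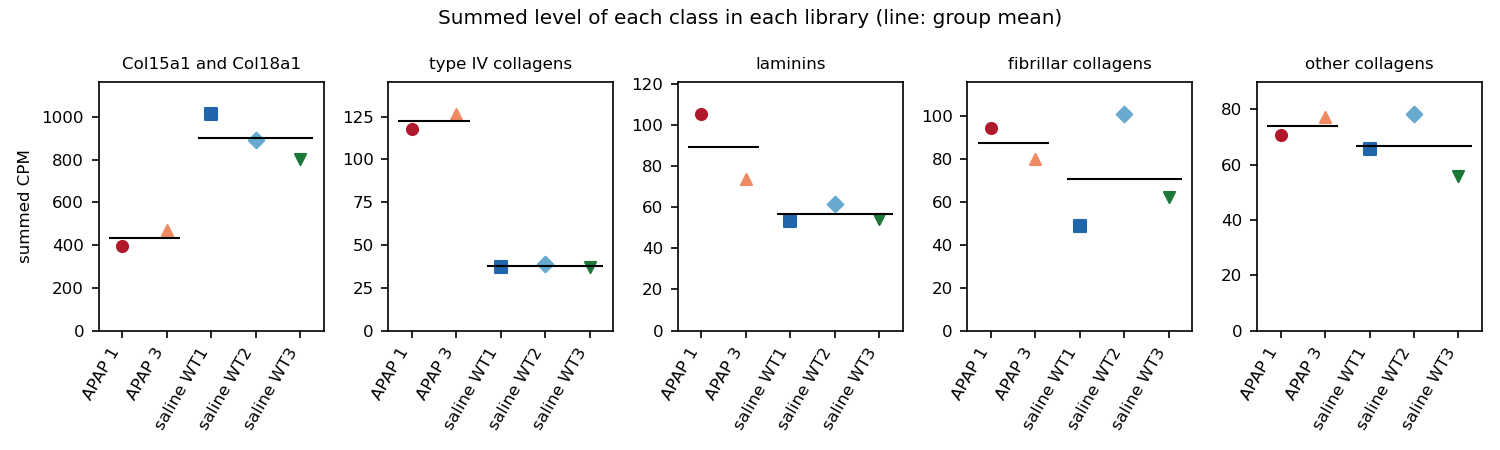
Summed CPM (y axis, from 0, each panel on its own scale) of the members of each class in each of the 5 libraries (x axis), with a line at each group's mean. The multiplexins sit lower in both APAP libraries, the type IV collagens and laminins higher, and the fibrillar and other collagens overlap between the groups.

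No fibrillar collagen was called at the adjusted p in edgeR's test, although 1, Col1a1, had an unadjusted P under 0.05 and was called by DESeq2. The median log2 fold change of the 9 tested was 0.30, and the summed level was 94.5 and 79.9 CPM with APAP and 48.5, 100.8 and 62.2 CPM with saline. Saline WT2 was above both APAP libraries in this sum. Col1a1 and Col1a2 encode type I collagen, the main protein of scar tissue, in which 2 alpha 1 chains join 1 alpha 2 chain. Col1a1 measured 10.2 and 5.15 CPM in the APAP livers against 1.44, 2.78 and 1.60 CPM in the saline livers, and the groups did not overlap. The log2 fold change was 1.97 ± 0.45 (3.91-fold, adjusted p = 0.0512). The adjusted p fell under 0.05 in 7 of 13 alternatives and lay between 0.0672 and 0.313 with 1 library left out. Col1a2 measured 17.2 and 8.69 CPM in the APAP livers against 10.7, 12.5 and 5.06 CPM in the saline livers, so that APAP replicate 3 lay inside the saline range (log2 fold change 0.46 ± 0.45, adjusted p = 0.593).

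The share of Col1a1 among the reads of both type I chains was compared without a test. Col1a1 took 37.1% of the reads of both chains in APAP replicate 1 (95% Clopper-Pearson interval 32.7 to 41.7) and 37.2% (30.9 to 43.9) in replicate 3. In the saline libraries its share was 11.9% (6.93 to 18.5), 18.3% (13.5 to 23.9) and 24.0% (16.0 to 33.6). The APAP shares were nearly equal and above every saline share, although the interval of saline WT3 reached into theirs. As a ratio per kilobase, there were 0.532 and 0.535 Col1a1 transcripts per Col1a2 transcript with APAP and 0.121, 0.202 and 0.285 with saline. This ratio does not depend on the scaling of the libraries. Against Col3a1, in contrast, the count ratio of Col1a1 was 0.503 and 0.279 with APAP and 0.0964, 0.146 and 0.279 with saline, where APAP replicate 3 and saline WT3 met.

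**Figure D3:**
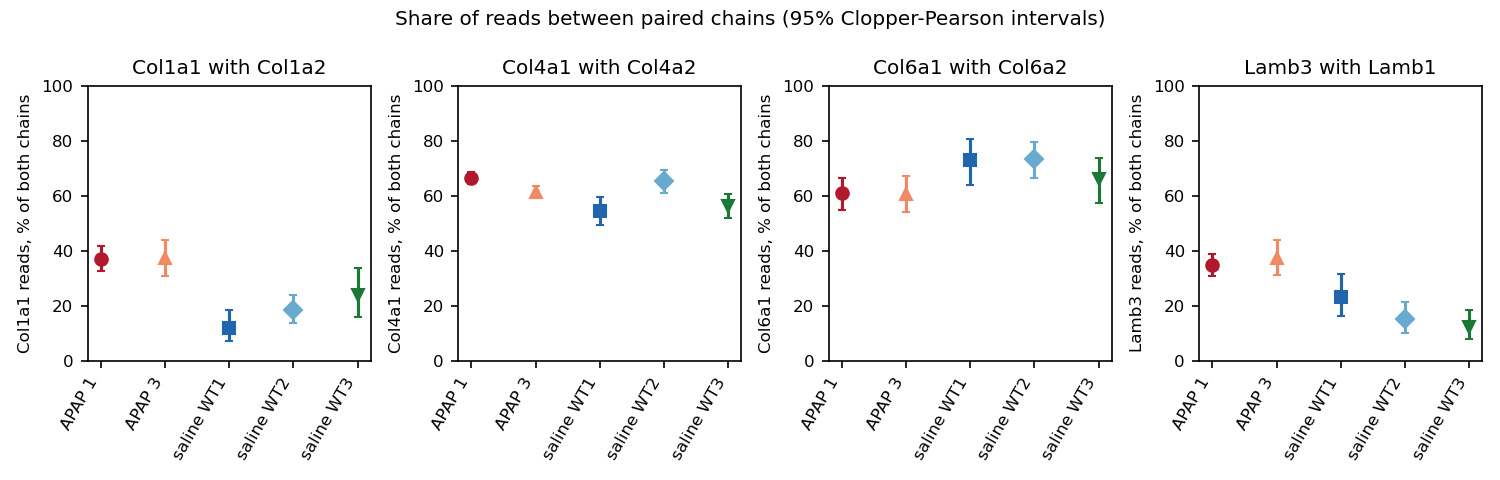
Share of reads (y axis, percent of both chains, with 95% Clopper-Pearson intervals) of the first named chain in 4 pairs of chains, for each library (x axis). Col1a1 and Lamb3 take larger shares in both APAP libraries, Col6a1 smaller ones, and the share of Col4a1 overlaps between the groups.

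Col3a1, the chain of type III collagen, which forms the reticular fibers of the liver, measured 20.2 and 18.5 CPM in the APAP livers against 14.9, 19.0 and 5.73 CPM in the saline livers (log2 fold change 0.55 ± 0.45, adjusted p = 0.521). The groups overlapped through saline WT2. Type V collagen nucleates type I fibrils. Its chain Col5a1 was at 7.64 and 8.82 CPM beside 7.82, 7.56 and 7.99 CPM, Col5a2 at 5.13 and 5.22 CPM beside 2.79, 4.38 and 3.40 CPM, and Col5a3 at 14.4 and 12.1 CPM beside 5.12, 27.3 and 19.2 CPM. Of these, Col5a2 was higher in both APAP libraries without passing a threshold (log2 fold change 0.55 ± 0.34, adjusted p = 0.39), Col5a1 was level across all 5 libraries, and Col5a3 varied more among saline livers than between the groups. Col27a1 varied likewise, at 17.3 and 20.4 CPM in the APAP livers against 5.30, 24.0 and 16.3 CPM in the saline livers. The remaining fibrillar genes were low. Col11a2 had 115 counts and Col24a1 39 counts in all with no call, Col11a1 had 1 count, and Col2a1 of cartilage had none.

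Among the collagens of other types, Col16a1 was higher with APAP. It is a fibril-associated collagen that links fibrils and basement membranes, on chromosome 4 (chr4:130047840-130099283, plus strand). Col16a1 measured 7.47 and 6.83 CPM in the APAP livers against 2.34, 2.45 and 2.80 CPM in the saline livers, a mean of 7.15 ± 0.45 (SD, n = 2) beside 2.53 ± 0.24 (SD, n = 3). Both groups were narrow and well apart. The log2 fold change was 1.49 ± 0.31 (2.82-fold, adjusted p = 0.0376). The call was lost whenever 1 library was left out, with adjusted p of 0.2 and 0.119 without APAP replicates 1 and 3 and of 0.0823, 0.152 and 0.0617 without saline WT1, WT2 and WT3, while the log2 fold change stayed between 1.43 and 1.57. The 250 bases before its start (RefSeq, GRCm38.p6, chr4:130047590-130047839, plus strand) are shown because Col16a1 is the called gene outside the basement membrane class, with the GGGCGG and CCAAT motifs in capitals. An exon of the antisense transcript Gm12963 covers 113 of these bases on the other strand.
Col16a1: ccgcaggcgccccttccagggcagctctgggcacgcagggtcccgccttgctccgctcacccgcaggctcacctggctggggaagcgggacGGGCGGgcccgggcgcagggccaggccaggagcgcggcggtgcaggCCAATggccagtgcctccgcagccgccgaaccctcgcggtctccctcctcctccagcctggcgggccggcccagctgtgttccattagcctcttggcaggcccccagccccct

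Col12a1, another fibril-associated collagen of dense connective tissue, measured 11.3 and 5.22 CPM in the APAP livers against 1.71, 1.33 and 4.93 CPM in the saline livers. APAP replicate 3 was only just above saline WT3 (log2 fold change 1.62 ± 0.61, adjusted p = 0.17). Its log2 fold change was 2.44 without saline WT3 (adjusted p = 0.0469) but 0.97 without APAP replicate 1 (adjusted p = 0.633), and the other omissions gave 1.29 to 2.07 with adjusted p of 0.187 to 0.367. Col14a1, which binds the surface of type I fibrils, was the most abundant collagen of other types, at 19.5 and 33.3 CPM in the APAP livers against 39.7, 42.3 and 24.5 CPM in the saline livers. The groups overlapped (log2 fold change -0.42 ± 0.33, adjusted p = 0.506). Col13a1, a transmembrane collagen, was at 4.38 and 6.52 CPM beside 3.78, 5.97 and 6.53 CPM, with no difference detectable beyond the spread (log2 fold change 0.00 ± 0.37).

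Type VI collagen forms beaded filaments around cells from an alpha 1, an alpha 2 and another, longer chain. Col6a1 measured 9.80 and 8.63 CPM in the APAP livers against 7.73, 9.02 and 6.20 CPM in the saline livers, and Col6a3 at 7.06 and 6.21 CPM beside 5.12, 8.82 and 2.80 CPM. Both overlapped between the groups. Col6a2 measured 6.30 and 5.59 CPM in the APAP livers against 2.88, 3.25 and 3.197 CPM in the saline livers, without overlap (log2 fold change 0.93 ± 0.31, adjusted p = 0.13). Col6a1 accordingly took 60.9% and 60.7% of the reads of the alpha 1 and alpha 2 chains with APAP and 72.9%, 73.5% and 66.0% with saline. The shares were apart, but the interval of saline WT3 (57.5 to 73.7) contained both APAP values. The alternative long chains were near the floor. Col6a5 had 12 and 15 counts with APAP and 0, 4 and 1 with saline (adjusted p = 0.192), Col6a6 was at 0.292 and 1.18 CPM beside 0.360, 0.199 and 0.200 CPM, and Col6a4 had 5 and 1 counts beside 0 in each saline library.

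The 7 remaining members of other types with at least 10 counts, Col7a1, Col8a1, Col9a3, Col20a1, Col22a1, Col23a1 and Col25a1, had between 10 and 95 counts in all, and none passed a threshold. Col23a1 and Col25a1, transmembrane collagens, were lower in both APAP libraries, with adjusted p of 0.249 and 0.274. The 11 members under 10 counts were Col2a1, Col6a4, Col8a2, Col9a1, Col9a2, Col10a1, Col11a1, Col17a1, Col19a1, Col26a1 and Col28a1. Of these, 3 had no count in any library, which places them below the floor of 3 counts but does not show that they were absent.

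**Figure D4:**
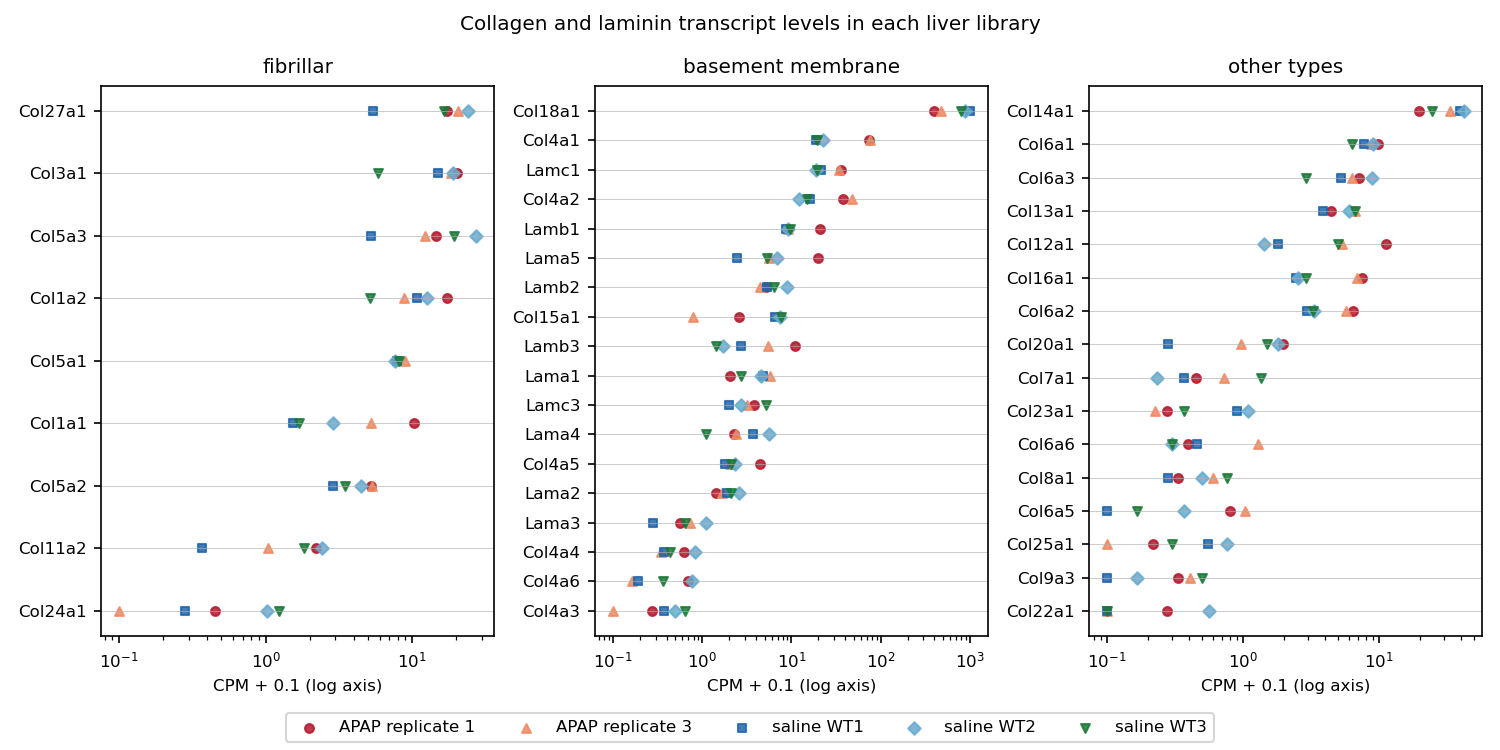
Level of the tested members reported here in each library (x axis, CPM + 0.1, log axis), ordered by mean within the fibrillar, basement membrane and other types, with 1 symbol per library. Col18a1 stands apart at the top of the basement membrane genes, and Col4a1, Col4a2, Lamb3 and Col16a1 have both APAP symbols to the right of all saline symbols.

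Genes that act with these proteins were read from 6 lists. Of 11 basement membrane partners, 1 was called, Nid1 (nidogen 1), which bridges laminin and type IV collagen. Nid1 measured 208.9 and 134.7 CPM in the APAP livers against 14.7, 17.6 and 16.9 CPM in the saline livers, higher in both APAP libraries by a wide margin (log2 fold change 3.39 ± 0.26, adjusted p = 0.00139, and at most 0.0198 with any library left out). Its relative Nid2 measured 5.08 and 4.16 CPM in the APAP livers against 8.63, 10.47 and 5.795 CPM in the saline livers, below them in both libraries (log2 fold change -0.84 ± 0.35, adjusted p = 0.204). APAP replicate 1 and saline WT3 had 87 counts of Nid2 each, so that their order depends on the TMM factors, 1.28 and 0.94. Hspg2, perlecan, overlapped between the groups (log2 fold change 0.10 ± 0.27). The list's median log2 fold change was 0.10.

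Of 15 receptors of collagen and laminin, 3 were called, all higher with APAP. Itga3, an integrin chain that binds laminin-332 and laminins with the alpha 5 chain, measured 43.1 and 23.8 CPM in the APAP livers against 11.8, 8.35 and 9.19 CPM in the saline livers (log2 fold change 1.78 ± 0.30, adjusted p = 0.0211). Ddr1, an epithelial collagen receptor kinase, measured 8.98 and 8.13 CPM in the APAP livers against 1.62, 1.92 and 2.27 CPM in the saline livers (log2 fold change 2.13 ± 0.32, adjusted p = 0.0141). Itga2, the collagen-binding chain of an integrin, was at 4.32 and 3.04 CPM beside 0.270, 0 and 0.400 CPM (adjusted p = 0.0453). The groups did not overlap in any of these 3. The calls were lost without some single libraries, with adjusted p up to 0.141 for Itga3 and 0.104 for Ddr1 (both without APAP replicate 1), and Itga2 was lost in each case (0.0547 to 0.207). The remaining receptors included Itga1 and Ddr2 with log2 fold changes of -0.03 in each case, and the median of the list was 0.59.

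Of 14 proteoglycans and glycoproteins of fibrils, 2 were called. Thbs1, thrombospondin 1, an activator of latent TGF-β, measured 36.7 and 55.1 CPM in the APAP livers against 0.899, 3.05 and 2.26 CPM in the saline livers (log2 fold change 4.44 ± 0.45, adjusted p = 0.00373). Tnc, tenascin C of wound matrix, was at 4.67 and 7.33 CPM beside 0.809, 0.663 and 0.466 CPM (log2 fold change 3.21 ± 0.45, adjusted p = 0.0112, and 0.0682 without APAP replicate 3 and 0.0706 without saline WT2). Both were higher in each APAP library than in any saline library. Of 11 genes of TGF-β signaling, 3 were called higher, namely the target Ctgf (38.9 and 57.2 CPM beside 7.64, 14.6 and 15.2 CPM, adjusted p = 0.0218), the inhibitor Smad7 (adjusted p = 0.0434) and the receptor Tgfbr2 (adjusted p = 0.0496). With any 1 library left out, Ctgf reached adjusted p of up to 0.0986, Smad7 between 0.054 and 0.26, and Tgfbr2 up to 0.284. Smad7 was at 36.0 and 21.6 CPM beside 8.27, 13.1 and 11.3 CPM, and Tgfbr2 at 64.5 and 30.8 CPM beside 19.1, 15.9 and 9.99 CPM.

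The machinery that folds, cross-links and cuts procollagen was not called. None of 23 tested genes of folding, modification and cross-linking and none of 7 tested genes of procollagen processing had an adjusted p under 0.05, while 4 of the first and 2 of the second reached an unadjusted P under 0.05 in edgeR's test, and DESeq2 called 0 of the first and 2 of the second. The median log2 fold changes were 0.28 and 0.45.

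Markers of the cell types that could hold these transcripts moved in different ways. Of 10 bile duct cell (cholangiocyte) genes, 2 were called higher, Sox9 and Spp1, 7 were higher at the study's thresholds, and DESeq2 called 4. The median log2 fold change of the list was 2.43, and the summed level of the list was 373.2 and 374.6 CPM with APAP beside 69.8 to 76.2 CPM with saline. Most of that sum was Spp1 (274.4 and 314.6 CPM with APAP). Sox9 was at 7.97 and 8.69 times the saline mean and Spp1 at 6.84 and 7.84 times, close together in the APAP libraries. The keratin genes Krt19 and Krt7 and the surface gene Epcam were at 12.0, 6.91 and 4.39 times the saline mean in APAP replicate 1 but at 1.40, 2.34 and 1.3 times in replicate 3. The list of 12 myofibroblast or portal fibroblast genes was split, and its median difference was 0.32 on the log2 scale. Mfap4 (-0.94), Dpt (-0.93), Clec3b (-1.33), Cd34 (-0.22) and Pdgfra (-0.12) were lower with APAP without a call. The other genes of this list were higher. Among them, the contractile genes Acta2 and Myh11 were at 12.7 and 7.39 times the saline mean in APAP replicate 1. In replicate 3 they were at 1.61 and 0.774 times. Lama5, Lamb1, Col12a1, Lamb3, Col1a1 and Col1a2 were likewise higher in APAP replicate 1 than in replicate 3, by 3.54, 2.30, 2.16, 2.03, 1.97 and 1.98 times, whereas Col4a1, Lamc1 and Col16a1 differed between these libraries by 0.979, 1.06 and 1.09 times. Other members were also higher in replicate 1, among them Col15a1 (2.51 and 0.683 CPM), which was lower with APAP, and Col4a5 (4.32 and 1.93 CPM). Members lower in replicate 1 than in replicate 3 included Lama1 (1.93 and 5.65 CPM) and Col14a1 (19.5 and 33.3 CPM). The part of bile duct and contractile cells in the results of the genes higher in replicate 1 was not tested. In the plot relative to saline, Col4a1, Col4a2, Lamc1 and Col16a1 have both APAP libraries together, as do Sox9 and Spp1, while Acta2, Myh11, Krt19, Krt7 and Epcam have them apart.

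**Figure D5:**
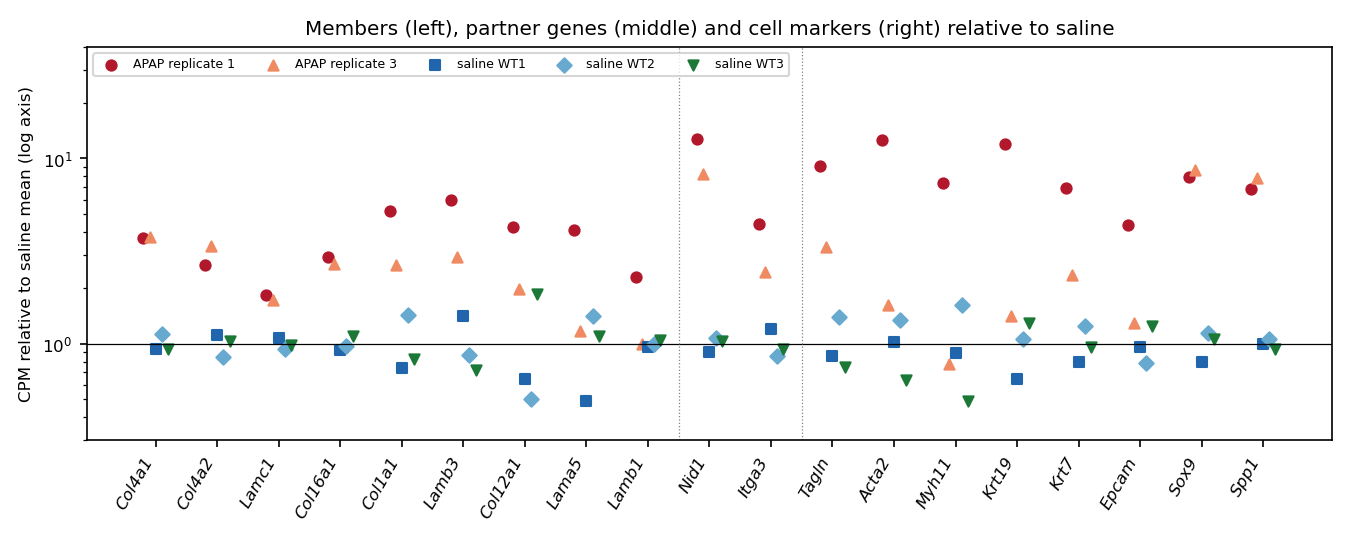
CPM of each library relative to the mean of the saline libraries (y axis, log axis) for 9 members (left), Nid1 and Itga3 (middle) and 8 contractile or bile duct markers (right). Both APAP symbols lie together for Col4a1 (3.70 and 3.78), Sox9 (7.97 and 8.69) and Spp1 (6.84 and 7.84) and far apart for Acta2 (12.7 and 1.61) and Krt19 (12.0 and 1.40).

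Of 12 genes of quiescent stellate cells none was called, and the summed level was 227.9 and 414.5 CPM with APAP and 403 to 483.8 CPM with saline. DESeq2 called 1 of them, and 3 had an unadjusted P under 0.05 in edgeR's test. Of 12 genes of myofibroblasts or portal fibroblasts 1 was called, Tagln, with sums of 258.4 and 108.9 CPM beside 68.5 to 119.1 CPM, and of 12 sinusoidal endothelial genes none, with sums of 207.5 and 305.4 CPM beside 215.8 to 358.4 CPM. The endothelial list had 3 genes with an unadjusted P under 0.05, and DESeq2 called 0. Of 10 vascular endothelial genes, Wnt2 was called lower, with sums of 79.7 and 109.1 CPM beside 74.1 to 88.6 CPM. This vascular list was split, with a median log2 fold change of 0.16. Without overlap between the groups, 3 of its genes were higher (Efnb2, Sox17 and Ephb4) and 3 lower (Wnt2, Wnt9b and Rspo3). It had 3 genes with an unadjusted P under 0.05 in edgeR's test, and DESeq2 called 3. Mesothelial genes summed to 9.39 and 6.96 CPM beside 4.31 to 6.17 CPM and macrophage genes to 244.4 and 452.8 CPM beside 249.5 to 348.2 CPM, with no call by edgeR in either list. At an unadjusted P under 0.05 these lists had 1 and 2 genes, and DESeq2 called 0 and 1. Neutrophil genes, of which 7 of 10 were called higher, summed to 2151 and 743.5 CPM beside 15.1 to 70.8 CPM. Most of each sum was Lcn2, at 2031 and 664 CPM with APAP and 11.86, 9.48 and 61.95 CPM with saline. Among 10 hepatocyte genes 1, Apoa2, was called lower. Of the hepatocyte genes, 4 were lower at the study's thresholds, DESeq2 called 4, and the median log2 fold change was -0.69. The hepatocyte sums, 87945 and 139970 CPM with APAP beside 142445 to 200134 CPM, were lower in both APAP libraries. Alb made up most of each sum, at 51177 and 90209 CPM with APAP and 129475, 94912 and 120038 CPM with saline. Fgb and Apoa1 went the other way (log2 fold change 0.77 and 0.57, neither called), and Fgb did so without overlap. In the hepatocyte sum, APAP replicate 3 lay just below saline WT2 (142445 CPM), and their order depends on the TMM factors, 1.08 and 0.981. With single libraries left out, the call of Tagln was lost in 4 of 5 cases (adjusted p up to 0.15), that of Wnt2 in 3 (up to 0.086) and that of Apoa2 in all 5 (0.0743 to 0.236). Among the bile duct genes, Cldn4 had no count in saline WT2 and WT3 and Cftr none in saline WT1. The mesothelial Wt1 and the neutrophil gene Il1r2 had none in saline WT1, Cxcr2 none in saline WT2, and Ly6g none in any of the 3 saline libraries. The part of these cell types in the members' differences was not tested.

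Promoter windows in RefSeq (GRCm38.p6) were found for 40 of the 55 members. Of 4 motifs searched on both strands, GGGCGG was in the windows of 25 members (62.5%, beside 38.2% of all 27025 genes with a window), CCAAT in 14 (35%, beside 41.1%), TATAAA in 5 (12.5%, beside 15.7%) and TGANTCA in 1, Col6a1 (2.5%, beside 8.97%). No motif contains another. Of the 4 called members, Col4a1, Col4a2 and Col16a1 had both GGGCGG and CCAAT, and the windows of Lamb3 had none of the 4. Of the windows at the 2 starts of Col18a1, the first listed had none of the motifs and the other had GGGCGG and CCAAT, and the window of Col15a1 had none.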

How the data were processed

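Bulk RNA-Seq was performed by the authors on liver RNA (SMARTER library kit, Illumina NovaSeq). Reads were aligned with HISAT2 and the authors deposited raw read counts per gene, without normalization. The processing notes of the submitters name GRCm38 (mm10). Annotation, strand setting and versions are not given in the sources used here. The 5 FPKM columns were not used, since the unit tested was counts.

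Genes with at least 10 counts summed over 5 libraries were scaled by TMM and tested by the quasi-likelihood test of edgeR 4.0.16 (R 4.3.3) with Benjamini-Hochberg adjustment. The study names edgeR without saying which test. Standard errors are the log2 fold change divided by the root of F, and are approximate. DESeq2 1.42.0 was an alternative. The steps were tested on simulated data. Levels per kb use the longest protein-coding transcript in GENCODE M21. Figures were drawn with matplotlib 3.10.9 (Python 3.11.15).

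Values in every library are given for members with an adjusted p under 0.05, a 1.5-fold change or more and P under 0.05, among the 4 highest mean CPM of their type, or partner chains of these. List genes are named at an adjusted p under 0.05, at most 4 a list by mean CPM. Outside this rule, genes named in the text (Nid2, Hspg2, Itga1, Ddr2, the markers and low members) were chosen after their values were seen. The values of 1 member are not reported here, although counts, sums and medians over members include it. Members and lists were chosen with earlier results of these data known. Nothing says that libraries were made separately beyond their labels as samples, so p-values measure the spread between these samples. Within groups, libraries differed beyond counting noise (chi-square over its degrees of freedom, 43.2 to 92.2).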

Additional observations from a re-analysis of the deposited data

How the results depend on the processing

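The direction of Col4a1, Col4a2, Lamb3 and Col16a1 was kept in all 13 alternatives. The 4 members called at the adjusted p became 8 with DESeq2, 9 with the likelihood ratio test and 8 with the exact test of edgeR, and between 1 and 3 with 1 library left out. The 13 members passing the study's thresholds stayed between 10 and 15. Scaling to library size only raised the median log2 fold change of all genes from 0.05 to 0.44 and the split of calls at the adjusted p from 467 higher and 443 lower to 893 and 259. Over all genes, the 910 calls at the adjusted p became 2068 with DESeq2, 1951 with the likelihood ratio test, 1814 with the exact test and 1402 with every gene of 1 count or more, and 226 and 372 without APAP replicates 1 and 3, 468 without saline WT1 and 169 without saline WT2. With the study's thresholds, library size only gave 3609 higher and 767 lower, in place of 1914 and 1593. No paired analysis was possible because the saline columns carry no number that matches a sample.

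Among the 35 members given with values in every library, those that passed no threshold changed sign in 27 cases, all with an adjusted p above 0.5. Of the low members given by range only, Col7a1, Col8a1, Col11a2, Col20a1 and Col22a1 also changed sign with some library left out. With library size only these were Col4a4 (0.18), Col4a6 (0.30), Lama1 (0.31) and Lama3 (0.23). Col13a1 was at -0.028 with DESeq2's size factors in edgeR and at -0.030 with DESeq2. With 1 library left out, the lowest and highest values of the genes that changed sign were -0.311 and 0.262 for Col13a1, -0.112 and 0.874 for Col1a2, -0.086 and 0.791 for Col27a1, -0.833 and 0.343 for Col4a4, -0.048 and 1.115 for Col4a5, -2.336 and 0.787 for Col4a6, -0.026 and 0.179 for Col5a1, -0.797 and 0.115 for Col5a3, -0.076 and 0.745 for Col6a3, -1.012 and 0.536 for Lama1, -0.475 and 0.562 for Lama3, -0.005 and 1.198 for Lamb1 and -0.198 and 0.559 for Lamc3. The cause was not tested.

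The median of the basement membrane genes moved from -0.04 to 0.35 with filterByExpr, which tests 16 of them, and to 0.56 without saline WT2. That of the fibrillar genes moved from 0.30 to 0.63 with library size only and to 0.72 without saline WT2. Counting Col15a1 and Col18a1 among the other types gave medians of 0.05 and 0.13. The log2 ratio of the summed basement membrane level, -0.63, was -0.23 with library size only, and that of the other types was 0.53. Low counts limited the precision of genes near the floor of 3 counts.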
